A study of Ginkgo biloba with 6 samples.

Results

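The expressed loci with XLOC identifiers were examined in leaves of Ginkgo biloba, a gymnosperm tree grown for its flavonoid-rich leaves. They were chosen by their mean level: every identifier (ID) that starts with XLOC and averages 1 FPKM or more across the 6 libraries was taken. FPKM is a count of sequenced fragments scaled by transcript length and by the total of fragments mapped in that library. The rule found 266 of the 605 XLOC IDs, out of 26044 gene IDs in all. The mean FPKM chose these loci, so their levels are a description and carry no test.

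The 3 truncated libraries came from leaves of trees whose trunk had been cut to a height of 85 cm, a treatment given to 30 trees. The 3 control libraries came from leaves of uncut trees, also 30 in number. All trees were of the cultivar Fozhi, 5 years old, planted 0.6 m apart in a nursery for leaf harvest, and all leaves were taken at the harvesting stage. The libraries of each group are lettered A, B and C. How many trees gave leaves to a library is not given in the sources used here, so the p-values reflect spread between libraries that may be technical. The series title asks whether rejuvenation raises flavonoid accumulation in the leaf.

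The XLOC form of name is the one that the Cufflinks programs give to loci assembled from sequencing reads. Gb numbers are the form used in a published annotation of the Ginkgo genome. Loci assembled from reads can be protein-coding genes that an annotation missed, long non-coding RNAs, pieces of untranslated regions or transcribed repeats, and the Ginkgo genome is large and rich in repeats. Which of these an XLOC locus is cannot be read from the table, which pairs no ID with a gene name, a description or a position. The leaf and flavonoid marker genes could therefore not be looked up, and the leaf label was not checked against markers.

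Over the whole table the summed FPKM was 655395 to 738322 per library. The number of fragments is not recorded, but the spacing of low values put the depth of the libraries at 0.933 to 1.09 of that of control A. Over the XLOC loci, truncated C correlated more closely with control B (Pearson's r of log2(FPKM + 1) = 0.800) than with truncated A (0.708) or truncated B (0.623). Some of the results that rest on truncated C and control B are therefore given with and without them, and the others only with them. Over the whole table, 0 of 16054 tested IDs differed between truncated and control leaves at an adjusted p under 0.05 (limma, Benjamini-Hochberg), and 1103 did at an unadjusted p under 0.05.

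The XLOC loci were weakly expressed. Their mean level had a median of 2.32 FPKM, against 7.54 FPKM for the 15788 Gb IDs that reached a mean of 1 FPKM. Of the 266 loci, 207 (77.8%) had a mean under 5 FPKM, against 39.5% of the Gb IDs. Only 8 loci (3.01%) reached 20 FPKM, against 4201 Gb IDs (26.6%), and no locus reached 100 FPKM, a level that 878 Gb IDs had. The locus with the highest level, XLOC_005733, stood at rank 2345 of all IDs. The share of IDs that reached the mean of 1 FPKM was itself lower for XLOC (44.0%) than for Gb (62.1%).

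**Figure D1:**
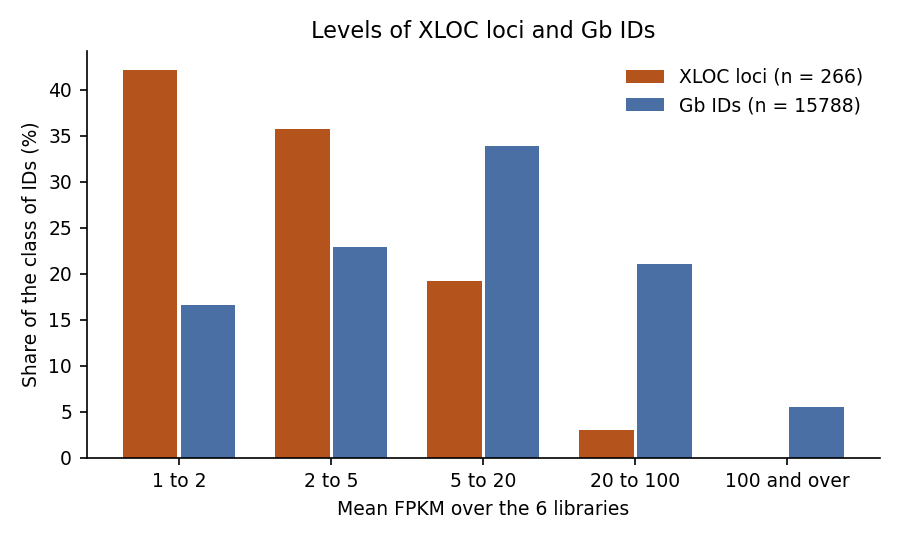
Share of the XLOC loci and of the Gb IDs, all averaging 1 FPKM or more, in 5 classes of mean FPKM over the 6 libraries, as bars in percent of each kind of ID. The class of 1 to 2 FPKM holds 42.1% of the XLOC loci and 16.6% of the Gb IDs, and the class of 100 FPKM and over holds no XLOC locus.

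At the lower edge, the loci just inside the rule were XLOC_015285 and XLOC_020353, both with a mean of 1.005 FPKM, and XLOC_047204 with 1.01 FPKM. Just outside it were XLOC_016720 with a mean of 0.995 FPKM, XLOC_034759 with 0.985 FPKM and XLOC_009992 with 0.982 FPKM. Of the 266 loci, 136 were at 1 FPKM or more in each of the 6 libraries. Of the 339 XLOC IDs below the rule, 194 were at 1 FPKM or more in at least 1 library.

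The 10 loci with the highest mean held 24.1% of the summed FPKM of the 266. XLOC_005733 had 30.7, 30.4 and 66.8 FPKM in truncated A, B and C, against 30.5, 48.6 and 24.9 FPKM in control A, B and C. Truncated C was far above the other truncated libraries, control B was above the other controls, and the groups overlapped. XLOC_037829 had 29.4, 45.2 and 29.7 FPKM in truncated A, B and C, against 31.7, 26.5 and 32.3 FPKM in the controls. Here truncated B alone stood above the rest. XLOC_043682 repeated this shape, with 28.7, 44.1 and 23.4 FPKM in truncated leaves against 28.5, 27.2 and 29.0 FPKM in control leaves.

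XLOC_001314 had 32.3, 23.6 and 36.6 FPKM in truncated A, B and C, against 26.4, 46.3 and 24.8 FPKM in the controls, with control B highest. XLOC_024641 had 30.4, 34.3 and 19.4 FPKM in truncated leaves, against 20.2, 29.6 and 23.8 FPKM in control leaves. XLOC_024652 had 26.9, 27.9 and 18.8 FPKM in truncated leaves, against 25.9, 21.5 and 27.2 FPKM in control leaves. In both of these truncated C was the lowest library, and the groups overlapped.

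XLOC_039444 was the steadiest of the highly expressed loci, with 28.9, 30.6 and 29.0 FPKM in truncated A, B and C, against 29.2, 25.3 and 26.4 FPKM in the controls. XLOC_033751 had 24.8, 27.1 and 20.3 FPKM in truncated leaves, against 15.2, 14.7 and 17.7 FPKM in control leaves, and it was the one locus among the 10 whose groups did not overlap. XLOC_017437 had 27.6, 17.1 and 25.3 FPKM in truncated leaves, against 14.3, 12.7 and 20.9 FPKM in control leaves, with truncated B inside the range of the controls.

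XLOC_021029 differed between libraries of a group more than any other of the 10. It had 12.2, 7.52 and 61.1 FPKM in truncated A, B and C, against 14.7, 58.5 and 13.6 FPKM in the controls. Truncated C and control B stood together far above the other libraries, which lay between 7.52 and 14.7 FPKM.

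**Figure D2:**
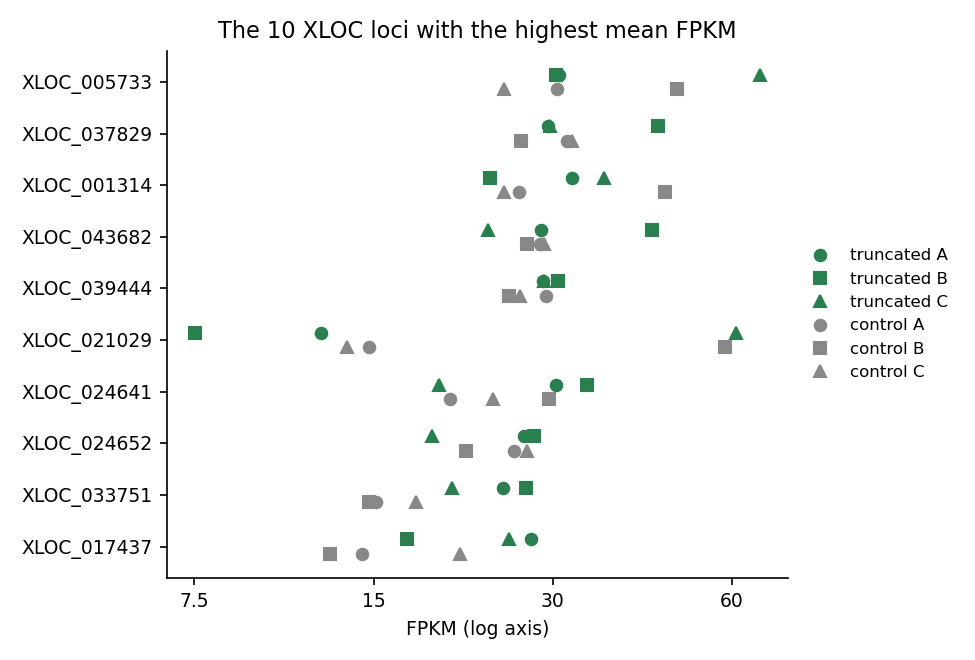
FPKM (log axis) of the 10 XLOC loci with the highest mean in each truncated library (green) and each control library (grey), with circles for A, squares for B and triangles for C. XLOC_039444 keeps its 6 points between 25.3 and 30.6 FPKM, while XLOC_021029 spans 7.52 to 61.1 FPKM, with truncated C and control B at the upper end.

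Some other IDs varied across the 6 libraries much as XLOC_005733 did. This compares the shape across libraries and not the level. By Pearson's r of log2(FPKM + 1) over the 6 libraries, the IDs most like it were Gb_13981 (r = 0.997), Gb_36879 (r = 0.995) and Gb_40118 (r = 0.994). An r of at least 0.9 with it was found in 12 of the other XLOC loci (4.53%) and in 1135 of all other tested IDs (7.07%). These values describe 6 libraries, of which truncated C and control B carry most of the shape.

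The XLOC loci together took a small and similar part of the transcript pool in both groups. Their share of the summed FPKM was 0.168%, 0.150% and 0.204% in truncated A, B and C, against 0.147%, 0.195% and 0.159% in control A, B and C. The mean was 0.174 ± 0.028% in truncated and 0.167 ± 0.025% in control leaves (SD, n = 3 each), a difference of 0.0074 percentage points that is smaller than the SD in either group. It was 0.0064 without truncated C and control B together. Leaving out 1 library gave -0.0077 percentage points without truncated C, -0.0026 without control A, 0.0032 without control C, 0.0102 without truncated A, 0.0196 without truncated B and 0.0214 without control B. Truncated C and control B had the highest shares of their groups. In number, 223, 198 and 233 of the loci were at 1 FPKM or more in truncated A, B and C, against 207, 235 and 223 in the controls. These counts are of FPKM not rescaled between libraries.

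No XLOC locus passed the test for a difference between truncated and control leaves. The test was limma on log2(FPKM + 1) over all 16054 IDs that averaged 1 FPKM or more, two-sided, with Benjamini-Hochberg adjustment over all of them. Of the 266 loci, 0 had an adjusted p under 0.05, the background being 0.0% of all IDs, and the smallest adjusted p of a locus was 0.385. At an unadjusted p under 0.05 there were 21 loci (7.89%), against 6.87% of all IDs tested. Of these 21, 11 had a higher mean in truncated leaves, against a background of 4.3%, and 10 had a lower mean, against a background of 2.57%. As shares of the loci these are 4.14% and 3.76%. Gb IDs, weighted to the same mix of FPKM classes as the loci, gave 4.68% higher and 2.14% lower.

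The loci at the unadjusted level were mostly weak, as were the 266 as a whole, of which 77.8% had a mean under 5 FPKM. Of the 21, 19 had a mean under 5 FPKM, and the adjusted p of the 21 from limma was 0.385 to 0.723. By class, 10 of 112 loci of 1 to 2 FPKM (8.93%) were at this level, against 5.91% of the Gb IDs of that class. For 2 to 5 FPKM it was 9 of 95 (9.47%), against 7.77%. For 5 to 20 FPKM it was 2 of 51 (3.92%), against 7.16%, and none of the 8 loci of 20 FPKM or more was among them, against 6.11% of the Gb IDs of 20 to 100 FPKM. A locus near the edge of the rule could enter it through 1 group alone: in 10 of the 21 the mean of 1 group was under 1 FPKM, against 148 of the 1082 Gb IDs at this level. Over the 266, 23 (8.65%) had only their truncated mean and 16 (6.02%) only their control mean at 1 FPKM or more, against 2.65% and 1.67% of the Gb IDs. The Gb IDs in both comparisons are of all levels, with 16.6% of them at 1 to 2 FPKM, against 42.1% of the loci. The part of level in these differences was not tested.

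The values of 3 truncated and 3 control libraries did not overlap in 43 loci (16.2%), 23 with truncated leaves above and 20 below. Over all IDs tested the share was 14.1%, with 7.2% above and 6.9% below. Without truncated C the count was 99 loci (37.2%), against 32.6% of all IDs, and without control B it was 66 (24.8%), against 22.3%. Without truncated C and control B together it was 126 (47.4%), against 42.2% of all IDs, where fewer libraries make an overlap less frequent by construction. At the unadjusted p the count was 39 (14.7%) without truncated C, against 10.4% of all IDs, and 35 (13.2%) without truncated C and control B together, against 8.64% of all IDs. A median log2 fold change of -0.01 was found over the loci, against -0.05 over all IDs. The sign of the loci's median was positive after quantile normalization, without truncated B, without control B, and among loci of 5 FPKM or more. Over all IDs the median was also positive without truncated B (0.046) and without control B (0.008). It was negative after quantile normalization (-0.024) and at 5 FPKM or more (-0.072).

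Of the loci with a higher mean in truncated leaves, the smallest p values among non-overlapping groups belonged to XLOC_043644 and XLOC_004810. Their control means, 0.55 and 0.38 FPKM, were under 1 FPKM, so both passed the rule through their truncated values. XLOC_043644 had 2.27, 3.0 and 3.29 FPKM in truncated A, B and C, against 0.75, 0.27 and 0.63 FPKM in the controls. The lowest truncated value was thus several times the highest control value, but all values were low. Its log2 fold change was 1.32 ± 0.23 (SE, n = 3 each), with an adjusted p of 0.385 from limma. XLOC_004810 had 1.86, 2.52 and 1.29 FPKM in truncated leaves, against 0.31, 0.17 and 0.66 FPKM in control leaves, and its log2 fold change was 1.06 ± 0.25 (SE) with an adjusted limma p of 0.388. The added 1 FPKM shrinks the fold changes of weak loci: with 0.1 added instead they were 2.25 for XLOC_043644 and 2.14 for XLOC_004810.

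Of the loci with a lower mean in truncated leaves, XLOC_018808 had 1.32, 1.01 and 0.65 FPKM in truncated A, B and C, against 4.16, 2.68 and 2.69 FPKM in the controls. Its log2 fold change was -1.06 ± 0.24 (SE), and the adjusted limma p was 0.385. With 0.1 FPKM added instead of 1 it was -1.60. The truncated mean of XLOC_018808 was 0.993 FPKM and its control mean 3.18 FPKM, so it passed the rule through its control values. XLOC_011593 had 1.7, 2.6 and 2.65 FPKM in truncated leaves, against 4.02, 6.24 and 4.39 FPKM in control leaves. Its log2 fold change was -0.82 ± 0.24 (SE), with an adjusted limma p of 0.439. That the groups of these 4 loci do not overlap was a condition of naming them.

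The locus with the largest fold change was XLOC_020401, singled out after its values were seen. It had 21.7, 22.7 and 16.4 FPKM in truncated A, B and C, against 2.19, 3.75 and 11.2 FPKM in control A, B and C. The groups did not overlap, and control C lay between the other controls and the truncated libraries. Its log2 fold change was 1.89 ± 0.48 (SE), with an adjusted limma p of 0.391. In all, 13 loci (4.89%) had a fold change of 2 or more in either direction on this scale, against 2.39% of all IDs. Of these, 9 (3.38%) were higher and 4 (1.5%) lower in truncated leaves, against 1.75% and 0.635% of all IDs. At the unadjusted p under 0.05 were 6 of the 13 (2.26% of the loci), against 321 of the 383 such IDs in all (2.0% of IDs). These backgrounds were not matched for level: the median mean was 7.36 FPKM over all IDs and 2.32 FPKM over the loci.

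**Figure D3:**
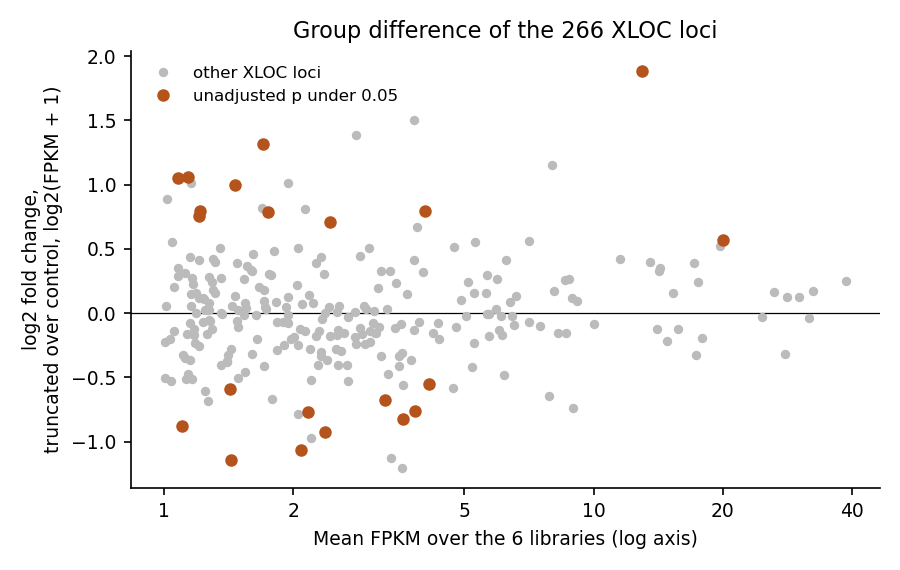
Log2 fold change between truncated and control leaves on the log2(FPKM + 1) scale against the mean FPKM (log axis) for each of the 266 XLOC loci, with the 21 at an unadjusted p under 0.05 in orange. The orange points lie at both signs, 19 of them under 5 FPKM, as are 77.8% of the 266 loci. The highest point is XLOC_020401 at 1.89. None passed the adjusted threshold.

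The precision for these loci was lower than for the table as a whole. Standard errors of the log2 fold changes had a median of 0.30 over the loci and 0.25 over all IDs. The unadjusted 95% interval lay within a 2-fold change in either direction for 135 of the 266 loci (50.8%), against 64.1% of all IDs. For the other loci a change of 2-fold on this scale was within the interval. The backgrounds here are all IDs and were not matched to the lower level of the loci.

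In control leaves, the spread between libraries was wider for XLOC loci than for Gb IDs of similar mean. In truncated leaves the comparison was mixed. The SD of log2(FPKM + 1), pooled over both groups, had a median of 0.39 over the loci and 0.31 over Gb IDs of all levels. To compare at like levels, each locus was set against the 50 Gb IDs nearest to it in mean FPKM, whose median SD was typically 0.35 (the median over the 266 loci). The locus was above the median SD of those Gb IDs in 153 of 266 cases (57.5%), and in 157 (59.0%) without truncated C and control B. Under the other scalings, pseudocounts and left-out libraries it was above in 142 cases (53.4%, without control C) to 173 (65.0%, after quantile normalization). Taken by group, it was above in 140 cases (52.6%) in truncated leaves and in 152 (57.1%) in control leaves. These counts by group were made only with truncated C and control B included.

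Over all levels, the median SD in truncated leaves was 0.36 for the loci, and the neighbouring Gb IDs gave 0.38. In control leaves it was 0.32 for the loci, and the neighbouring Gb IDs gave 0.26. By class of mean FPKM, the median SD of the loci was above that of the Gb IDs in each of 4 classes in control leaves. In truncated leaves it was above in the classes of 2 to 5 FPKM (0.45 against 0.39), 5 to 20 FPKM (0.35 against 0.34) and 20 to 100 FPKM (0.38 against 0.30), and not in that of 1 to 2 FPKM (0.34 against 0.35). The SD was larger in truncated than in control leaves for 168 of the 266 loci (63.2%) and for 72.1% of the Gb IDs. These are shares over loci that come from the same 6 libraries, and the difference between the kinds of ID was not tested.

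**Figure D4:**
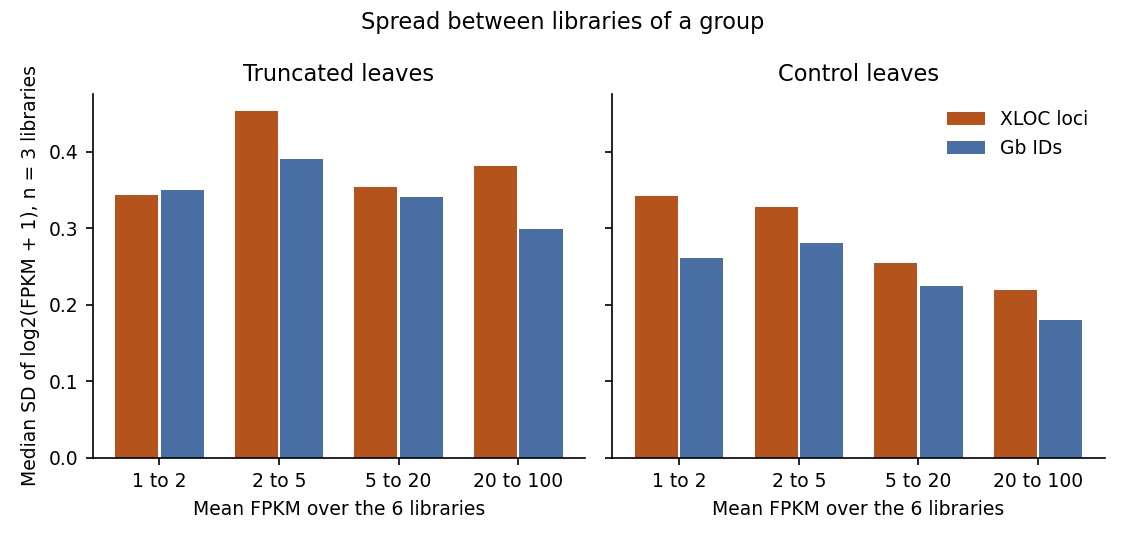
Median SD of log2(FPKM + 1) over 3 libraries, for XLOC loci and Gb IDs in 4 classes of mean FPKM, in truncated leaves (left) and control leaves (right). In control leaves the XLOC bar is the higher one in each class, with 0.34 against 0.26 at 1 to 2 FPKM. In truncated leaves the XLOC bar is the higher one except at 1 to 2 FPKM, where the bars are 0.34 and 0.35. The class of 20 to 100 FPKM holds 8 XLOC loci.

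Listing at 0 was also more frequent. Of the 266 loci, 15 (5.64%) were listed at 0 in at least 1 library, against 2.81% of Gb IDs at the same mix of FPKM classes. Among loci of 1 to 2 FPKM it was 12 of 112 (10.7%), against 5.80% of the Gb IDs of that class. Of the 4 loci at 0 in more than 1 library, XLOC_001032 had 0.71, 0.0 and 4.61 FPKM in truncated A, B and C, against 1.4, 3.11 and 0.0 FPKM in the controls. XLOC_014274 had 0.51, 0.0 and 4.41 FPKM in truncated leaves, against 0.34, 2.38 and 0.0 FPKM in control leaves. In both, truncated C and control B held the highest values of their groups. XLOC_034118 had 0.0, 0.0 and 3.13 FPKM in truncated leaves, against 1.22, 1.56 and 1.55 FPKM in control leaves, so that truncated C lay above the controls and the other truncated libraries were listed at 0.

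A value above 0 is smallest where few fragments were counted, and 1 fragment weighs more in FPKM on a short transcript. Among XLOC IDs at 0 in 3 or more libraries (79 of all 605), the smallest value above 0 had a median of 0.28 FPKM. Among such Gb IDs (4368 of 25439) it was 0.13 FPKM. Lengths are not in the table, and the part of length or of counting noise in the spread of the XLOC loci was not tested.

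The most variable loci of at least 5 FPKM fell into contrasting shapes. XLOC_012614 had the largest SD, 2.22 on the log2 scale, with 16.4, 0.21 and 0.21 FPKM in truncated A, B and C, against 0.04, 13.8 and 0.0 FPKM in the controls. It was high in 1 library of each group, truncated A and control B, and near 0 in the other libraries. A level in those 2 libraries at least 10 times that of every other library was found in 0 of the 15788 Gb IDs and in no other XLOC locus. This comparison was chosen after the values were seen. Its log2 fold change between the groups was 0.24 ± 1.41 (SE), with an adjusted limma p of 0.996.

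XLOC_014865, singled out after its values were seen, was the one locus with a single library at least 10 times above all others. It had 0.2, 0.0 and 6.61 FPKM in truncated A, B and C, against 0.0, 0.0 and 0.11 FPKM in the controls. Among the Gb IDs 2 had such a single library. Its mean of 1.15 FPKM, and with it its place among the 266, came from truncated C.

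The other 4 most variable loci shared high values in truncated C and control B. Besides XLOC_021029, described above, XLOC_025111 had 8.03, 4.12 and 36.1 FPKM in truncated A, B and C, against 9.39, 39.3 and 7.09 FPKM in the controls. XLOC_003695 had 4.62, 1.33 and 11.9 FPKM in truncated leaves, against 2.38, 12.0 and 4.02 FPKM in control leaves. XLOC_023700 had 3.87, 1.09 and 12.1 FPKM in truncated leaves, against 4.46, 11.1 and 4.54 FPKM in control leaves. In all 4 loci, XLOC_021029 included, truncated B was the lowest library.

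At the steady end, next to XLOC_039444 with an SD of 0.079, stood XLOC_017515 with an SD of 0.11. It had 9.23, 10.1 and 8.54 FPKM in truncated A, B and C, against 8.58, 7.78 and 9.17 FPKM in the controls. XLOC_033370 had 9.01, 9.3 and 7.64 FPKM in truncated leaves, against 7.04, 8.08 and 7.55 FPKM in control leaves. XLOC_011325 had 6.25, 5.76 and 5.01 FPKM in truncated leaves, against 6.1, 5.16 and 5.89 FPKM in control leaves. In these 3 the groups overlapped. XLOC_013967 had 17.6, 16.2 and 14.7 FPKM in truncated leaves, against 11.4, 12.7 and 13.3 FPKM in control leaves, without overlap, and its adjusted limma p was 0.755. An SD under 0.2 was found in 40 loci (15.04%) and in 24.96% of the Gb IDs of all levels, not matched for mean FPKM.

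Variation within the groups ran along the same libraries as in the rest of the table. The deviations of truncated C and of control B from their group means correlated at r = 0.44 across the 266 loci, against r = 0.68 across the Gb IDs. The points are loci measured in the same libraries, so r is a description. Leaving out XLOC_012614 gave r = 0.53. By class, r was 0.40 for loci and 0.51 for Gb IDs of 1 to 2 FPKM, and 0.55 and 0.65 at 2 to 5 FPKM. At 5 to 20 FPKM it was 0.28 and 0.73, and without XLOC_012614 the 50 other loci of that class gave 0.68. At 20 to 100 FPKM it was 0.90 over only 8 loci and 0.76 over Gb IDs.

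The library with the highest value of a locus was truncated C for 72 loci (27.1%) and control B for 51 (19.2%), against 30.2% and 24.9% of the Gb IDs. The library with the lowest value was truncated B for 87 loci (32.7%), against 41.9% of the Gb IDs. In 10 loci (3.76%) truncated C and control B were each at least 2-fold above both other libraries of their group on the log2(FPKM + 1) scale, against 5.36% of the Gb IDs. The reverse, at least 2-fold below in both, was found in 0 loci and in 0.0253% of the Gb IDs. Truncated C had the highest depth, 1.09 of control A, while control B had 0.939. Scale factors from the median of ratios were 1.143 in truncated C, 1.097 in control B and 0.870 in truncated B. In the other libraries they were 0.963 to 1.011. A factor above 1 marks a library whose FPKM values were typically higher. The counts and deviations above are of FPKM not rescaled by these factors. The part of depth or of this shift in scale in the variation was not tested.

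**Figure D5:**
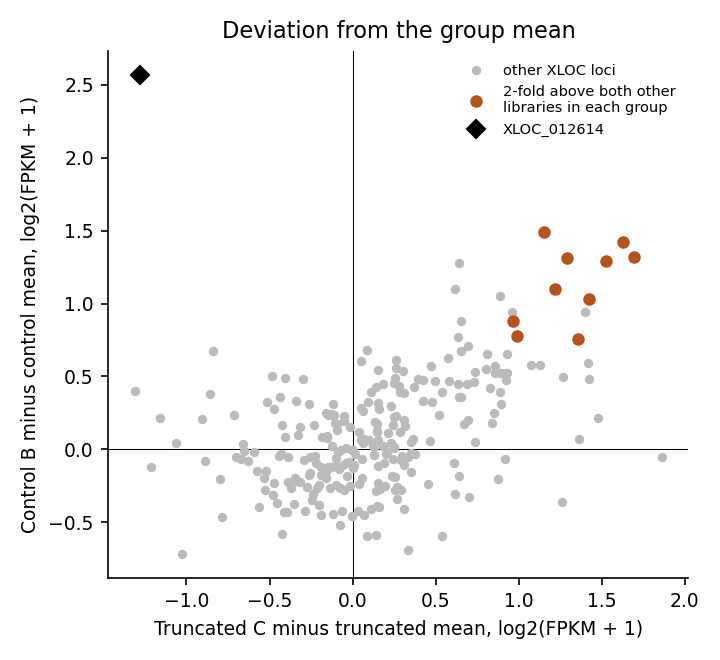
Deviation of truncated C from the truncated mean (x axis) and of control B from the control mean (y axis), in log2(FPKM + 1), for the 266 XLOC loci. The 10 orange points are loci at least 2-fold above both other libraries in each group, and XLOC_012614 (black) lies apart, low in truncated C and high in control B.

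Across pairs of libraries, Pearson's r of log2(FPKM + 1) over the 266 loci was 0.623 to 0.862 among truncated libraries, 0.773 to 0.880 among control libraries and 0.617 to 0.872 between the groups. The ranges within and between the groups overlapped. Between truncated B and truncated C, 76 loci (28.6%) differed by at least 2-fold, against 25.7% of the Gb IDs. Between truncated A and control C, 9 loci (3.38%) did so, against 1.49% of the Gb IDs. The share was larger for XLOC loci than for Gb IDs in each of the 15 pairs. The Gb IDs here are of all levels and were not matched for mean FPKM.

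XLOC numbers ran from 555 to 47725 among the loci, so that the 605 XLOC IDs in the table are a small part of the numbering. Among the 266 loci, 3 pairs had consecutive numbers, a choice by number and not by value. XLOC_000887 had 12.1, 12.9 and 23.8 FPKM in truncated A, B and C, against 11.0, 19.5 and 12.3 FPKM in the controls. Its neighbour XLOC_000888 had 0.28, 0.92 and 5.0 FPKM in truncated leaves, against 0.57, 4.59 and 0.3 FPKM in control leaves. Both were highest in truncated C and control B, at levels several-fold apart.

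XLOC_007755 had 1.14, 2.32 and 1.92 FPKM in truncated A, B and C, against 0.79, 2.84 and 0.99 FPKM in the controls, and XLOC_007756 had 2.54, 5.5 and 5.21 FPKM in truncated leaves, against 6.26, 6.07 and 5.71 FPKM in control leaves. XLOC_008804 had 1.39, 2.21 and 1.8 FPKM in truncated leaves, against 3.0, 1.7 and 1.28 FPKM in control leaves. Its neighbour XLOC_008805 had 1.2, 0.92 and 1.69 FPKM in truncated leaves, against 2.34, 5.5 and 2.56 FPKM in control leaves. In these pairs, the neighbours did not order the libraries alike. None of the 266 loci shared all 6 values with another ID, and 93 of the 15788 tested Gb IDs did. At a share that low, 266 loci may well hold none, so this does not set the loci apart.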

How the data were processed

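The deposited values are FPKM per gene ID and library, per the file headers, rounded to 2 decimals. CASAVA 1.8, TopHat2 and RSEM are named in the submitters' processing notes, with no role or order; no genome build or annotation is named in the sources used here. FPKM holds no counts, so no count test was run, no counting interval is given and log2(FPKM + 1) was tested with limma 3.58.1 (R 4.3.3; mean trend, two-sided, group term, 6 libraries) over the 16054 IDs that averaged 1 FPKM or more, at 0.05 after Benjamini-Hochberg adjustment. limma was run on simulated data with noise drawn independently for each ID and library. Deviations shared across IDs, as seen in truncated C and control B, were not simulated, so the run does not cover them. Relative depth was taken from the mode of the ratios to control A among IDs at 0.3 to 1.5 FPKM in both libraries (Python 3.11.15), an estimate that assumes whole fragments and like length correction.

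Named loci were the 10 highest, the 2 with the smallest p in each direction among non-overlapping groups, the 5 most and the 5 least variable of at least 5 FPKM, the 3 on each side of the edge, and the 3 highest at 0 in more than 1 library. The members, lists and rules were chosen with earlier results of these data known. Gene lists for leaf and flavonoid markers were not computed, since the table holds no names. Alternatives changed pseudocount, filter, scaling, variance trend, threshold and libraries, or added the letter as a block. No per-sample column was left unused (0).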

Additional observations from a re-analysis of the deposited data

How the results depend on the processing

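No alternative called an XLOC locus at an adjusted p under 0.05 (limma); the smallest adjusted p of a locus was 0.150, without control C. The 21 loci at an unadjusted p under 0.05 became 2 of 59 with a filter of 5 FPKM (3.39%, against 6.78% of all IDs) and 6 at a threshold of 0.01 (2.26%, against 2.37%). They became 12 with the letter as a replicate block (4.51%, against 4.32%), 35 without truncated C and control B together (13.2%, against 8.64%; added after seeing the data), and 16 to 39 without 1 library (6.02% to 14.7%, against 4.09% to 10.4%), the highest without truncated C. The cause was not tested. The letters were taken as names and not as pairs: over the loci, deviations of same-lettered libraries correlated at 0.011 (A), -0.43 (B) and -0.35 (C), and libraries did not each correlate best with their own letter. The 43 loci whose groups do not overlap became 7 with a filter of 5 FPKM (11.9%, against 14.9% of all IDs), 61 to 99 without 1 library (22.9% to 37.2%, against 19.6% to 32.6%) and 126 without truncated C and control B (47.4%, against 42.2%). Their share of summed FPKM moved by less than 1 SD. The median spread of the loci stayed within 1.5 times, at 0.27 to 0.53. It was wider than that of Gb IDs under each pseudocount, scaling, filter and left-out library run. Those Gb IDs were of all levels, or of 5 FPKM or more under that filter, and were not matched for mean FPKM. The 4 loci named for a group difference kept their sign in 56 of 56 alternative values, and 0 passed the threshold. They were named for groups that do not overlap, so leaving out libraries or changing the pseudocount could not reverse the sign. Only FPKM values are given, so depth is known only relative to control A.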
